A study of Mus musculus with 4 samples.

Results

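The antiviral effector genes Rsad2, Cmpk2, Mx1, Mx2, Bst2, Ifitm1, Ifitm2, Ifitm3 and Ifitm6 were chosen by name. All 9 were found, each under 1 identifier, among the 54532 genes of the table. Their transcripts were measured by sequencing polyadenylated RNA of bone marrow-derived macrophages. These cells were grown for 6 days from femur and tibia marrow of C57BL/6 mice aged 6 to 8 weeks. The medium held 10% serum and 20% supernatant of L929 fibroblasts, which supplies macrophage colony-stimulating factor. Every mouse carried loxP-flanked Fbxw7 alleles (FBXW7f/f), the controls included. By the series' design, the mice titled WT carried these alleles alone and those titled KO carried LysM-cre as well, a Cre recombinase driven from the lysozyme gene Lyz2 in myeloid cells. Fbxw7 encodes the part of an SCF ubiquitin ligase that recognises its substrates. Cells of each title were either untreated or given lipopolysaccharide (LPS), a bacterial cell wall lipid, for 3 h. Each of the 4 groups was 1 library. The sources used here state neither the LPS dose nor how many animals a library stands for.

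In macrophages LPS is sensed by the receptor TLR4, which switches on the interferon β gene through the adaptor TRIF. Secreted interferon then acts on the same and neighbouring cells through JAK kinases, and the transcription factors these activate bind interferon-stimulated response elements in its target genes. The genes studied here are such targets and act at different steps of a viral life cycle. Ifitm proteins sit in endosomal and plasma membranes and hinder fusion of virus with the cell. Mx proteins are dynamin-like GTPases that act on incoming viral nucleoproteins. Viperin, the product of Rsad2, converts CTP into a chain-terminating nucleotide, and Cmpk2 is a mitochondrial nucleotide kinase. Tetherin, the product of Bst2, holds budding virions on the cell surface. C57BL/6 mice carry a defective Mx1 allele, and Mx2 is listed in the table as a polymorphic pseudogene, so their transcript levels are not levels of a working protein.

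The labels could not be settled from the libraries. The genotype tag was FBXW7f/f for both untreated samples and LysM-cre FBXW7f/f for both LPS samples, against the titles, which were followed. If the tags were right instead, both LPS libraries would carry cre and neither untreated one would. LPS and genotype could then not be told apart in any comparison of LPS with untreated libraries, the additive model included. Fbxw7 had 395 and 477 counts untreated and 170 and 191 after LPS in titles WT and KO, and a count per gene cannot show the loss of an exon. Lyz1, a neighbour of the gene that carries cre, had 63 and 910 counts untreated and 569 and 43 counts after LPS, with title WT before KO. Lyz2 itself ran the other way, at 15253 and 8711 CPM untreated and 9917 and 18238 CPM with LPS. Both genes thus pair the untreated library of each title with the LPS library of the other. An exchange of titles within 1 treatment and another difference between cultures cannot be told apart. Total counts ran from 17610372 to 23835940 per library. All 8 macrophage markers had counts in all 4 libraries, with a summed level between 15045 and 25791 CPM (counts scaled to a common library size). Lyz2 is on that list and made up most of the sum in every library, so this range largely repeats its values. Levels below are CPM normalized by edgeR's TMM method unless FPKM is named. Intervals are exact 95% intervals that cover counting error only, and a comparison of 2 libraries has no replicate check and no p-value.

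The 9 genes lie at 4 loci of the mm10 genome. Rsad2 (ENSMUSG00000020641, chr12:26442746-26456452, minus strand) and Cmpk2 (ENSMUSG00000020638, chr12:26469204-26479837, plus strand) are transcribed away from each other, and 12752 bases separate their annotated starts. Mx1 (ENSMUSG00000000386, chr16:97447035-97462907, minus strand) and Mx2 (ENSMUSG00000023341, chr16:97535308-97560900, plus strand) also diverge, with 72401 bases between their starts. Ifitm2 (ENSMUSG00000060591, chr7:140954837-140955987, minus strand), Ifitm1 (ENSMUSG00000025491, chr7:140967221-140969825, plus strand), Ifitm3 (ENSMUSG00000025492, chr7:141009586-141010770, minus strand) and Ifitm6 (ENSMUSG00000059108, chr7:141015699-141017924, minus strand) span 63088 bases of chromosome 7. Bst2 (ENSMUSG00000046718, chr8:71534255-71537456, minus strand) lies alone. All 9 have the same position in GENCODE M21.

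Promoters of 4 genes are shown because they stand for the 2 kinds of behaviour described below: Rsad2 and Cmpk2 were far higher after LPS in both titles, while Bst2 and Ifitm3 followed each other across the 4 libraries. Each is the 250 bases before the start site in RefSeq (GRCm38.p6), read 5′ to 3′ on the strand of the gene. Capitals mark matches to the core of the interferon-stimulated response element, GAAANNGAAA, or to the gamma-activated site, TTCNNNGAA, searched on both strands.
Rsad2 (chr12:26456453-26456702, minus strand): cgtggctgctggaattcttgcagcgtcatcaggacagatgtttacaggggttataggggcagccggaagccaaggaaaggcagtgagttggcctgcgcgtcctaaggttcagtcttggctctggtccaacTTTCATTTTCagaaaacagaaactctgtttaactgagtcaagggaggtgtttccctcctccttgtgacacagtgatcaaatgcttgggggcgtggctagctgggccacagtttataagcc
Cmpk2 (chr12:26468965-26469214, plus strand): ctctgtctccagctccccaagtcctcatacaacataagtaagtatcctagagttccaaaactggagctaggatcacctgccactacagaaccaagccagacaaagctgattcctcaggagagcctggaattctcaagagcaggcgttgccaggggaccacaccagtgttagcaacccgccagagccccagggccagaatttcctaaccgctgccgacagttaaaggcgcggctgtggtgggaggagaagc
Bst2 (chr8:71537473-71537722, minus strand): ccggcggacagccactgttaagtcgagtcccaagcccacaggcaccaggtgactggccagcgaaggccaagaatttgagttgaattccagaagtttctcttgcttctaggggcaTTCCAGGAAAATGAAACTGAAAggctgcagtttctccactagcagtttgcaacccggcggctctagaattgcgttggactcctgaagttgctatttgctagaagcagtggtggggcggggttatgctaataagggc
Ifitm3 (chr7:141010745-141010994, minus strand): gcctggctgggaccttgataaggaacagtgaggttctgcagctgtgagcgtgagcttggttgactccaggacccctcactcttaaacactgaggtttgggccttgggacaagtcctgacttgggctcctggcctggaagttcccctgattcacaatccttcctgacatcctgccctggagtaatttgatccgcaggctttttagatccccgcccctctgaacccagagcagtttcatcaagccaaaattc

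The response element core was matched once in the Rsad2 window, 111 to 120 bases before the start and on the opposite strand. In the Bst2 window it was matched at 2 overlapping places, 115 to 130 bases before the start, and the upstream copy overlaps the gamma-activated site match at 128 to 136 bases. Ifitm2 held 1 match of the core, GAAAAGGAAA, 37 to 46 bases before its start. Ifitm6 held 1 gamma-activated site match, TTCCTTGAA, 2 to 10 bases before its start. No letters of either motif were found in the windows of Cmpk2, Ifitm1 and Ifitm3. An NF-κB site pattern, GGGANTTNCC, was found in none of the 7 windows, those of Rsad2, Cmpk2, Bst2, Ifitm1, Ifitm2, Ifitm3 and Ifitm6. Over all 32851 promoter windows of this length the core was present in 2.98%, the gamma-activated site in 7.02% and the NF-κB pattern in 0.980%. A match is a run of letters, not a measured binding site.

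Rsad2, which encodes viperin, was among the most abundant transcripts of the LPS libraries. The untreated libraries held 2832 counts (128 CPM) under title WT and 5400 counts (195 CPM) under title KO. The LPS libraries held 212770 counts (12389 CPM) under title WT and 256106 counts (15671 CPM) under title KO. These were 1.02% and 1.32% of all counts of their libraries, which gave Rsad2 ranks 5 and 4 of all genes by count. Both LPS libraries were far above both untreated ones. The LPS level was 96.5-fold (92.9 to 100.1) the untreated level in libraries titled WT and 80.3-fold (78.1 to 82.5) in libraries titled KO. Since the titles are in doubt, each LPS library was also set against each untreated one, and the 4 ratios ran from 63.5 to 122. These ratios cover an exchange of titles, but not the case in which the genotype tags are right.

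Cmpk2, the nucleotide kinase gene beside Rsad2, moved with it. It had 1549 counts (70.3 CPM) and 2342 counts (84.7 CPM) in the untreated libraries titled WT and KO. The LPS libraries held 88040 counts (5126 CPM) in the WT title and 113540 counts (6947 CPM) in the KO title. The groups did not overlap. LPS over untreated was 73.0-fold (69.4 to 76.8) in libraries titled WT and 82.0-fold (78.8 to 85.5) in libraries titled KO, and the 4 ratios of an LPS to an untreated library ran from 60.5 to 98.9. Within a library, the FPKM of Rsad2 was 1.76 times that of Cmpk2 (1.65 to 1.87) in the untreated library titled WT. The same ratio was 2.21 (2.11 to 2.33), 2.32 (2.30 to 2.34) and 2.17 (2.15 to 2.18) in the untreated KO-titled, LPS WT-titled and LPS KO-titled libraries. This ratio does not depend on how libraries are scaled, and it was lowest in the untreated library titled WT.

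Mx1 and Mx2 behaved alike at different levels. Mx1 had 132 and 180.4 CPM in the untreated libraries titled WT and KO (2921 and 4989 counts), and 3668 and 3724 CPM in the LPS libraries titled WT and KO (63000 and 60864 counts). Mx2, in the same order of titles, had 16.6 and 19.3 CPM (365 and 533 counts) without LPS and 724 and 683 CPM (12428 and 11162 counts) with it. For either gene the LPS libraries lay close together and far above the untreated ones. Mx1 was 27.7-fold (26.7 to 28.7) higher after LPS in libraries titled WT and 20.6-fold (20.1 to 21.3) higher in libraries titled KO. Mx2 was 43.7-fold (39.4 to 48.6) and 35.4-fold (32.5 to 38.7) higher in the same comparisons. Over the 4 ratios of an LPS to an untreated library, Mx1 ranged from 20.3 to 28.1 and Mx2 from 35.4 to 43.7. The FPKM of Mx1 was 7.64 and 8.94 times that of Mx2 in the untreated libraries titled WT and KO and 4.84 and 5.21 times after LPS, so the pseudogene transcript rose proportionally more in both titles.

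**Figure D1:**
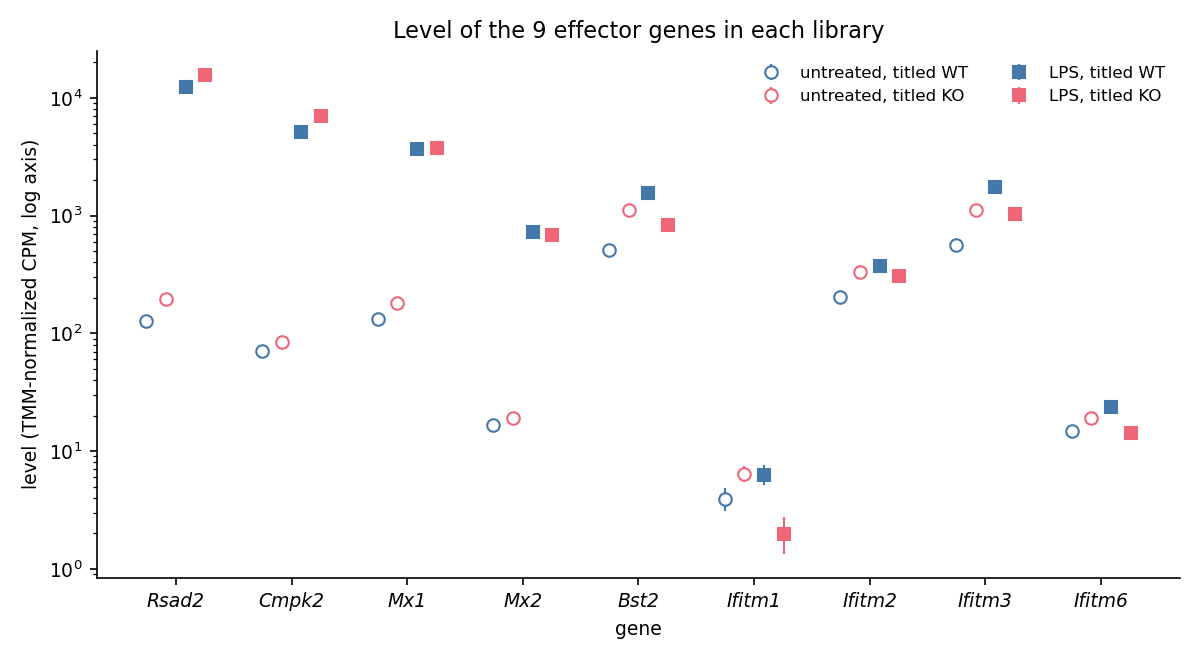
Level of each gene (TMM-normalized CPM, log axis) in each of the 4 libraries, with open circles for untreated, filled squares for LPS, blue for the WT title and red for the KO title; bars are 95% counting intervals, hidden where narrow. The LPS squares of Rsad2, Cmpk2, Mx1 and Mx2 stand far above the circles (Rsad2 at 12389 and 15671 CPM against 128 and 195), while for Bst2 and the Ifitm genes the untreated KO-titled and LPS WT-titled libraries are the highest (Bst2 at 1114 and 1546 CPM against 509 and 835).

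Bst2, which encodes tetherin, had a different order. Untreated, it had 11224 counts (509 CPM) under title WT and 30796 (1114 CPM) under title KO. With LPS these were 26545 counts (1546 CPM) and 13653 counts (835 CPM). The LPS WT-titled and untreated KO-titled libraries were highest, so untreated and LPS libraries overlapped. LPS over untreated was 3.04-fold (2.97 to 3.10) in libraries titled WT. In libraries titled KO, Bst2 was 1.33-fold (1.31 to 1.36) lower after LPS, which is short of the 2-fold size needed for a call. Over the 4 ratios of an LPS to an untreated library, Bst2 ranged from 0.750 to 3.04 with 3 above 1.

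Ifitm3, the family member best known for blocking influenza virus entry, followed Bst2 closely. Its counts were 12507 (567 CPM) and 30894 (1117 CPM) in the untreated libraries titled WT and KO, and 30278 (1763 CPM) and 16996 (1040.0 CPM) in the LPS libraries titled WT and KO. As with Bst2, the LPS library titled WT was highest and the untreated library titled WT lowest. Ifitm3 was 3.11-fold (3.04 to 3.17) higher after LPS in libraries titled WT and 1.07-fold (1.05 to 1.09) lower in libraries titled KO. The untreated KO-titled and LPS KO-titled libraries thus differed by a small margin, though beyond counting error.

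Ifitm2 had 204 and 331 CPM in the untreated libraries titled WT and KO and 376 and 304 CPM in the LPS libraries titled WT and KO (4488, 9166, 6454 and 4974 counts). Its range was the narrowest of the more abundant genes. LPS over untreated was 1.85-fold (1.78 to 1.92) in libraries titled WT, and in libraries titled KO the gene was 1.09-fold (1.05 to 1.13) lower. Neither passed the 2-fold rule.

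Ifitm6 and Ifitm1 were the scarcest of the 9 after LPS. Ifitm6, a family member known from myeloid cells, had levels of 14.7 and 19.3 CPM without LPS and 23.6 and 14.3 CPM with it, for titles WT and KO in turn (324, 533, 406 and 234 counts). Its lowest libraries, untreated WT-titled and LPS KO-titled, did not differ beyond counting error (ratio 1.03, 0.865 to 1.22). Ifitm1 levels were 3.90 and 6.40 CPM without LPS and 6.29 and 1.96 CPM with it, in the same order (86, 177, 108 and 32 counts). Its highest libraries, untreated KO-titled and LPS WT-titled, did not differ beyond counting error (ratio 1.02, 0.797 to 1.31). In libraries titled KO, Ifitm1 was 3.27-fold (2.23 to 4.92) lower after LPS, the 1 decrease called among the 9 genes. In libraries titled WT it was 1.61-fold (1.20 to 2.17) higher and not called.

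**Figure D2:**
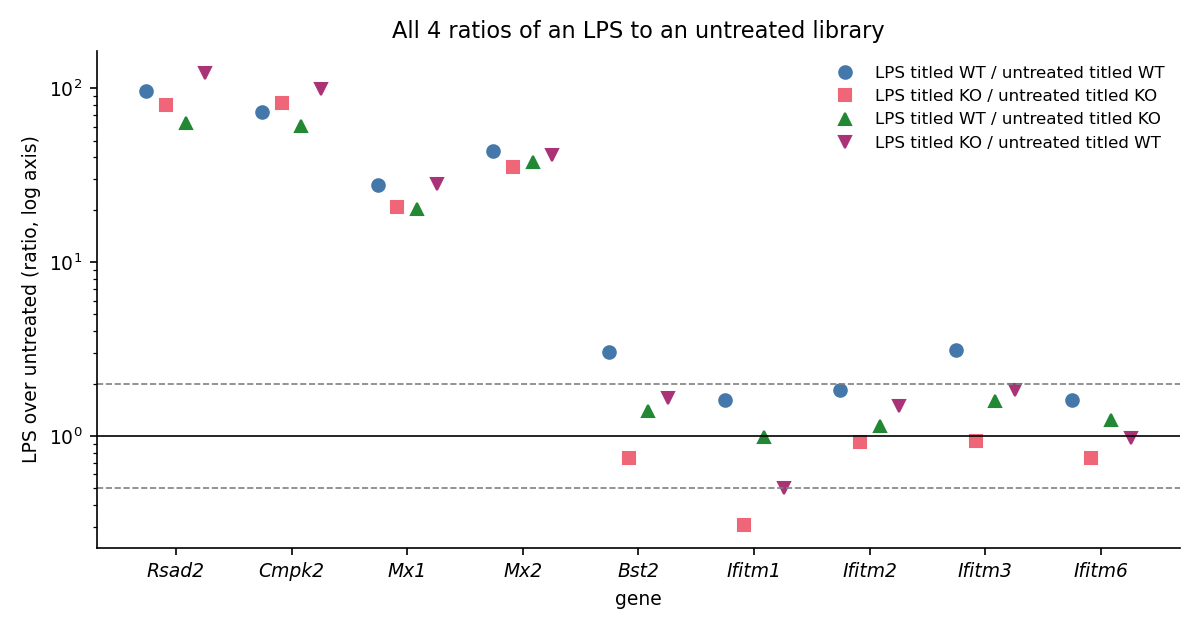
Ratio of each LPS library to each untreated library (log axis) for each gene, with 1 symbol per pair of libraries; the solid line marks no change and dashed lines 2-fold. All 4 ratios of Rsad2, Cmpk2, Mx1 and Mx2 lie above 20, whereas those of Bst2 run from 0.750 to 3.04 and those of Ifitm1 from 0.306 to 1.61.

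Counted by size, 6 of the 9 genes were called higher after LPS in libraries titled WT: Rsad2, Cmpk2, Mx1, Mx2, Bst2 and Ifitm3. A call needed at least 2-fold, a counting interval that excluded no change and a mean of 1 CPM, and the same rule called 15.4% of 12326 genes higher. None of the 9 was called lower, a call made for 15.0% of all genes. With library totals in place of TMM, 5 genes were called and Bst2 was not (log2 ratio 0.99). In libraries titled KO, 4 of 9 were called higher (Rsad2, Cmpk2, Mx1 and Mx2) against 14.6% of all genes, and 1 lower (Ifitm1) against 17.8%. The 4 called in both titles were also the 4 whose ratios to every untreated library were 2-fold or more, which held for 10.2% of all genes. They were also the 4 with both LPS libraries above both untreated ones, as 34.6% of all genes were, and 0 of the 9 had both below, as 38.1% were. The median log2 ratio of the 9 genes was 1.64 in libraries titled WT and −0.10 in libraries titled KO, beside −0.01 and −0.07 over all genes tested.

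The LPS effect common to the 4 libraries was tested with edgeR's quasi-likelihood F test in an additive model of title and treatment. That model has 1 residual degree of freedom, and its spread includes any difference of response between titles. All 9 genes passed its filter on low counts. Mx2 rose by 5.33 ± 0.30 log2 units (standard error implied by the F statistic, Benjamini-Hochberg adjusted p = 0.00458), Cmpk2 by 6.31 ± 0.49 (adjusted p = 0.00597), Mx1 by 4.61 ± 0.41 (adjusted p = 0.00656) and Rsad2 by 6.49 ± 0.60 (adjusted p = 0.00689). Each was higher in both LPS libraries than in both untreated ones. These 4 of 9 rose and 0 fell, where 9.35% of 13989 genes rose and 5.14% fell. At an unadjusted p under 0.05, 4 rose and 0 fell in edgeR, and 5 rose and 0 fell in DESeq2.

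For the other 5 genes the same test did not pass. The log2 effect was 0.80 ± 0.51 for Ifitm3 (edgeR adjusted p = 0.328) and 0.63 ± 0.57 for Bst2 (adjusted p = 0.474). It was 0.42 ± 0.33 for Ifitm2 (adjusted p = 0.416), 0.17 ± 0.35 for Ifitm6 (adjusted p = 0.771) and −0.45 ± 0.69 for Ifitm1 (adjusted p = 0.677). Scaled by library totals, the effects of Ifitm2 and Ifitm6 turned to −0.16 and −0.41, again without passing. In a model of treatment alone, Ifitm1 was at 0.10 without the untreated library titled KO and at 0.33 without the LPS library titled KO, and Ifitm6 was at −0.20 without the LPS library titled WT.

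Between titles, untreated, all 9 genes were higher in the KO-titled library. Their median log2 ratio was 0.60, beside 0.03 over all genes tested, so a ratio above 1 was common among all genes. Bst2 was 2.19-fold (2.14 to 2.24) higher and Ifitm3 1.97-fold (1.93 to 2.01), followed by Ifitm1 at 1.64-fold (1.26 to 2.15), Ifitm2 at 1.63-fold (1.57 to 1.69) and Rsad2 at 1.52-fold (1.45 to 1.59). Mx1 (1.36-fold, 1.30 to 1.43), Ifitm6 (1.31-fold, 1.14 to 1.51), Cmpk2 (1.21-fold, 1.13 to 1.29) and Mx2 (1.16-fold, 1.02 to 1.33) were closer to no change. Only Bst2 among the 9 reached the 2-fold rule, which called 3.16% of all genes higher, and 0 were called lower, against 2.03%. Ifitm3 lay just short of that size.

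After LPS the Ifitm genes and Bst2 lay the other way, and so, by a small margin, did Mx2. Higher in the KO title untreated but lower in it after LPS were thus 6 of the 9 genes, as were 37.4% of all genes. Bst2 was 1.85-fold (1.81 to 1.89) lower in the KO-titled library than in the WT-titled one, Ifitm3 1.70-fold (1.66 to 1.73), Ifitm6 1.65-fold (1.40 to 1.95) and Ifitm2 1.23-fold (1.19 to 1.28). Ifitm1, at 3.21-fold (2.15 to 4.93) lower, was the 1 gene of the 9 called, where 4.81% of all genes were called lower. None of the 9 was called higher, against 3.42% of all genes. Rsad2 and Cmpk2 were 1.26-fold (1.26 to 1.27) and 1.36-fold (1.34 to 1.37) higher in the KO-titled library. Mx1 and Mx2 differed little between these libraries, with ratios of 1.02 (1.00 to 1.03) and 0.944 (0.920 to 0.968).

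**Figure D3:**
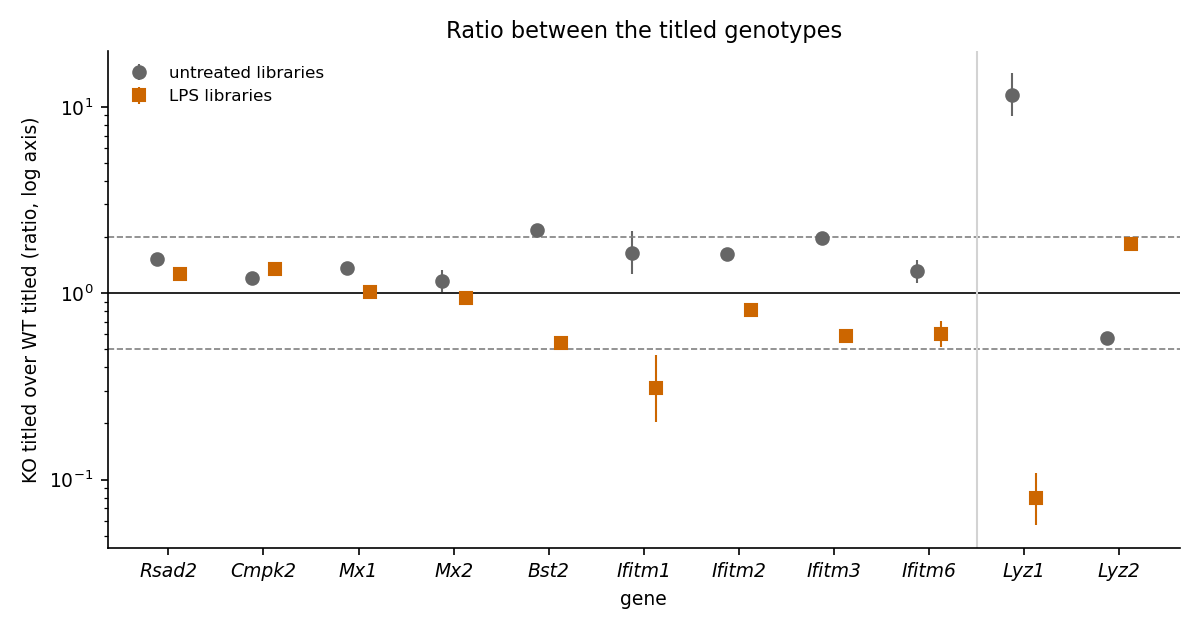
Ratio of the KO-titled to the WT-titled library (log axis) for the 9 genes and, right of the grey line, for Lyz1 and Lyz2; circles are untreated libraries, squares LPS libraries, bars 95% counting intervals, and dashed lines 2-fold. Bst2 and all 4 Ifitm genes lie above 1 untreated and below 1 after LPS (Bst2 at 2.19 and 0.540). Lyz1 does so further out (11.5 and 0.0794) and Mx2 closer to 1 (1.16 and 0.944), as do 37.4% of all genes. Rsad2, Cmpk2 and Mx1 lie above 1 in both.

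Bst2, Ifitm1, Ifitm2, Ifitm3 and Ifitm6 thus shared an order that Rsad2, Cmpk2, Mx1 and Mx2 did not have. In these 5 of 9 the untreated KO-titled and LPS WT-titled libraries were both above the other 2, an order noticed in the data, which 12.0% of all genes had. Lyz1 had it too, at 32.9 and 33.1 CPM against 2.86 and 2.63 CPM. So did 2 of the 4 listed markers of classical monocytes that reached a mean of 1 CPM: Ly6c2 had 13 counts in the untreated WT-titled, 155 in the untreated KO-titled, 62 in the LPS WT-titled and 7 in the LPS KO-titled library, and Ccr2 had 109, 660, 196 and 18. Chil3, the listed marker below that mean, had the same order with 2, 5, 7 and 1 counts. Summed over that list, monocyte markers ran from 23.5 to 35.8 CPM untreated and from 28.5 to 29.2 CPM after LPS, since F13a1 went the opposite way (378, 142, 156 and 362 counts). The part of these differences in the values of Bst2 and the Ifitm genes was not tested. In RNA of whole cultures, fewer cells of a type and less RNA per cell cannot be told apart.

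Of the 9, the same 5 genes had the largest difference between titles in their LPS response. The order they share makes this difference negative by itself, so its sign is no further result. On the log2 scale the response of KO titles minus that of WT titles was −2.34 (−3.00 to −1.67) for Ifitm1, −2.02 (−2.06 to −1.97) for Bst2, −1.74 (−1.78 to −1.70) for Ifitm3, −1.11 (−1.41 to −0.80) for Ifitm6 and −1.01 (−1.08 to −0.93) for Ifitm2. Those 5 passed a 2-fold size rule, as did 10.3% of all genes in that direction. In the other direction 0 of the 9 passed, against 7.76% of all genes. With library totals in place of TMM 3 passed, as Ifitm6 and Ifitm2 came to −0.96 and −0.86. For Mx1 the difference was −0.42 (−0.49 to −0.36), for Mx2 −0.30 (−0.50 to −0.11), for Rsad2 −0.26 (−0.33 to −0.20) and for Cmpk2 0.17 (0.08 to 0.26). These intervals are Poisson intervals of the counts. The interaction itself has no residual degree of freedom here and was not tested.

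Levels of different genes were compared per length, in the authors' FPKM. In the untreated libraries Ifitm3 was the most abundant of the 9, at 819 and 1588 FPKM in titles WT and KO, ranking 25 and 16 of all genes. Bst2 followed at 552 and 1189 FPKM and Ifitm2 at 304 and 488 FPKM, well above Mx1 (34.3 and 45.9), Rsad2 (29.0 and 43.4) and Cmpk2 (16.5 and 19.6). Ifitm6, at 15.9 and 20.5 FPKM, was close to Cmpk2. Mx2 (4.49 and 5.14 FPKM) and Ifitm1 (3.49 and 5.64 FPKM) were lowest. Transcripts of Ifitm3, Bst2 and Ifitm2 were thus abundant without LPS.

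After LPS the order changed. Rsad2 led at 2869.7 and 3712 FPKM in the libraries titled WT and KO, ranks 13 and 8 of all genes. Ifitm3 was next in the WT title, at 2611 FPKM. In the KO title Cmpk2 came between them, at 1714 FPKM against 1575 FPKM for Ifitm3, while in the WT title Cmpk2 stood at 1236 FPKM. Bst2 stood at 1719 and 950.0 FPKM, Mx1 at 973 and 1010.4, Ifitm2 at 576 and 477, and Mx2 at 201 and 194. Ifitm6 (26.2 and 16.2 FPKM) and Ifitm1 (5.77 and 1.84 FPKM) stayed scarce. Together the 9 genes took 0.206% and 0.356% of counts in the untreated libraries titled WT and KO, and 2.10% and 2.45% after LPS.

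Among other genes of the pathway, most antiviral genes moved as Rsad2 did. In edgeR's additive model 26 of 30 other interferon-induced antiviral genes rose and 0 fell, where 9.35% of all genes rose and 5.14% fell. Their median log2 effect was 2.25, beside −0.05 over all genes tested. DESeq2 called 29 as rising and 0 as falling, and at an unadjusted p under 0.05 edgeR had 29 rising and 0 falling. The largest were Ifit1, which binds foreign RNA caps (5.85 ± 0.48, adjusted p = 0.00610), the RNA sensor Ifih1 (5.10 ± 0.46, adjusted p = 0.00655), Oasl1 (4.93 ± 0.37, adjusted p = 0.00572) and Ifit2 (4.92 ± 0.50, adjusted p = 0.00821). Of these 30 genes, 29 were higher in both LPS libraries than in both untreated ones, as 34.6% of all genes were. The order of Bst2 and the Ifitm genes was seen in 0 of 30, against 12.0% of all genes. By the 2-fold size rule 29 were called higher in titles WT and 25 in titles KO, against 15.4% and 14.6% of all genes. Their median log2 LPS ratios were 2.42 and 1.92. Oas3 (2.31 in titles WT, 0.94 in titles KO) and Trim25 (2.00, 0.66) were called in titles WT alone. Ifih1 had the larger ratio in titles KO (5.55 against 4.58).

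Of 18 tested genes of type I interferon production and signalling 7 rose and 0 fell (median 0.99), beside 9.35% and 5.14% of all genes. DESeq2 called 9 as rising and 0 as falling, and at an unadjusted p under 0.05 edgeR had 10 rising and 0 falling. The largest effects were those of Ifnb1, the interferon β gene, by 8.60 ± 0.47 (edgeR adjusted p = 0.00438) and Socs1, a feedback inhibitor of JAK kinases, by 7.22 ± 0.38 (adjusted p = 0.00438). Irf1, an interferon regulatory factor, rose by 3.73 ± 0.29 (adjusted p = 0.00597) and Usp18, which removes ISG15 and dampens interferon receptor signalling, by 3.31 ± 0.27 (adjusted p = 0.00609). Ifnb1 had 1 and 8 counts without LPS and 908 and 1257 with it in titles WT and KO, so its folds of 1166 (209 to 46095) and 266 (135 to 617) rest on few untreated reads. It was 1.45-fold (1.33 to 1.59) higher in the KO-titled LPS library than in the WT-titled one, the same side as Rsad2 and Cmpk2. Irf7, an interferon-induced regulatory factor named after its values were seen, had levels of 136 and 606 CPM without LPS and 1252 and 799.5 CPM with it. It did not pass (1.83 ± 0.76, edgeR adjusted p = 0.169).

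Relatives of the 9 genes were tested as well. Of 8 tested genes of the same families 1 rose in edgeR and 0 fell, beside 9.35% and 5.14% of all genes, with a median of 0.08. DESeq2 called 1 as rising and 0 as falling, and edgeR had 2 rising and 0 falling at an unadjusted p under 0.05. The riser was Ifitm7, by 5.29 ± 1.11 (edgeR adjusted p = 0.0416). It had 0 and 2 counts without LPS and 47 and 18 with it in titles WT and KO, so the size of its effect depends on how zero counts are treated. Dnm1, a dynamin, was at −1.37 ± 1.14 (edgeR adjusted p = 0.441), Cmpk1, the cytosolic counterpart of Cmpk2, at 0.83 ± 0.26 (adjusted p = 0.0987) and Opa1, a mitochondrial dynamin relative, at 0.16 ± 0.20 (adjusted p = 0.614). Of 10 genes whose products process or assist the proteins, 0 passed in either direction in edgeR or DESeq2, with a median of −0.03. At an unadjusted p under 0.05 edgeR had 1 rising and 1 falling, and DESeq2 had 0 of either. The largest effects were −0.79 for Narfl and 0.51 for Fam96b, factors of cytosolic iron-sulfur assembly, 0.44 for Zdhhc20, a palmitoyltransferase of Ifitm3, and 0.35 for Vapa, a binding partner of Ifitm proteins. Since all these lists were drawn up with earlier results known, their counts describe these libraries and nothing more.

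**Figure D4:**
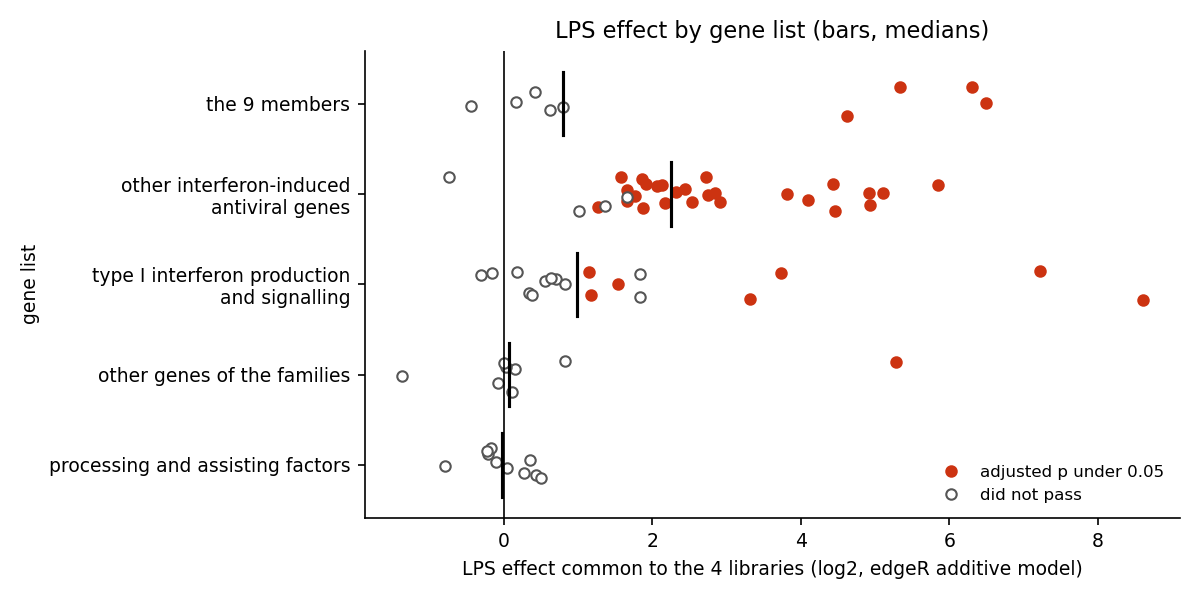
LPS effect (log2, edgeR additive model of the 4 libraries) of each tested gene by list, with filled red points for adjusted p under 0.05, open points for genes that did not pass, and black bars for list medians. The 9 genes separate into 4 between 4.61 and 6.49 and 5 between −0.45 and 0.80, while 26 of 30 other antiviral genes are filled and 0 of 10 processing and assisting factors are.

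The transcripts whose levels ran most like each gene over the 4 libraries were found by the distance between centred log2 levels, among 9194 other protein-coding genes with a mean of at least 5 CPM. Sdc4, a cell surface proteoglycan gene, was nearest to both Rsad2 (distance 0.23) and Cmpk2 (0.17), with Nipal1 (0.31) and the phosphatase gene Dusp2 (0.35) next. Gpr84 (0.18) and Batf2 (0.19) were nearest to Mx1, and Gbp2b (0.26) and Tnf (0.28) to Mx2. For Bst2 they were Cxcl16 (0.07) and Fabp5 (0.07), and for Ifitm3 Lgals3bp (0.06) and Ssc4d (0.07). Nearest to Ifitm2 were Cfp, the properdin gene (0.10), and Zbtb42 (0.11), to Ifitm6 Agpat2 (0.06) and Prkrip1 (0.08), and to Ifitm1 Irs2 (0.09) and Dusp4 (0.20). Among the 9 themselves Rsad2 and Cmpk2 (0.31) were each other's nearest, as were Mx1 and Mx2 (0.73) and Bst2 and Ifitm3 (0.22). These distances rest on 4 libraries and are descriptions.

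Bst2 is also a known marker of plasmacytoid dendritic cells, so markers of that cell type were examined. Siglech had 0 counts in 3 libraries and 2 in the untreated library titled KO, and Klk1 had 0 in all 4. The 6 markers together held between 62 and 105 counts per library, of which Cox6a2 had between 35 and 82. Of 10 neutrophil markers, Ly6g had 1 count in all and Retnlg 0, and the list summed to 3.72 and 4.30 CPM without LPS and 10.8 and 3.24 CPM with it in titles WT and KO. S100a8 had 43, 54, 167 and 45 of these counts, in that order. Erythroid markers held at most 11 counts in a library and NK cell markers at most 7. Summed T cell markers ran from 29.6 to 62.0 CPM, B cell markers from 9.96 to 31.6, conventional dendritic cell markers from 1.77 to 13.2, fibroblast markers from 1.86 to 5.87 and mast cell markers from 0.499 to 5.12.

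Shared sequence bears on the Ifitm genes most. Of the distinct 50-base words in Ifitm2 transcripts, 48.5% also occur in transcripts of another gene, chiefly Gm45717, a gene model that overlaps Ifitm2 by 1101 bases on the same strand and had 0 counts in every library. The share was 10.0% for Ifitm3, 5.02% for Ifitm1, and 4.37% and 4.38% for Mx1 and Mx2, whose shared words are mostly with each other. Ifitm3 and Ifitm2 shared 20 words with each other, which is 3.18% of those of Ifitm3 and 3.30% of those of Ifitm2. No word of Rsad2, Cmpk2, Bst2 or Ifitm6 was shared (0 of each). Reads from shared stretches could have been given to either gene or left uncounted, so the levels of Ifitm2 are uncertain. Few can have gone to the genes that share most words with Ifitm2. Beside Gm45717, Gm11951 had at most 1 count and Gm8865 at most 18 in a library, against 4488 to 9166 for Ifitm2.

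The authors' deposited table gave log2 folds for the same pairs of libraries, without replicates and with a test that is not named in the sources used here. For WT_LPS3 against WT, the authors' deposited table listed 1.66 for Ifitm3 (adjusted p 0.000900) and 1.63 for Bst2 (adjusted p 0.00119). For KO_LPS3 against KO, the authors' deposited table listed −0.10 for Ifitm3 (adjusted p 0.946), −0.41 for Bst2 (adjusted p 0.594) and −1.71 for Ifitm1 (adjusted p 0.00553). In its comparisons of KO with WT titles, the authors' deposited table listed no adjusted p under 0.05 for any of the 9 genes, the lowest being 0.0587 for Ifitm1 after LPS.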

How the data were processed

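The submitters' processing notes name HISAT2 2.0.5 and mm10. The sources used here name no counting program and no strand setting. The deposited table held a read count per gene and the authors' FPKM, per the file headers, for each library. It also held the authors' log2 fold and adjusted p-value for 4 comparisons, per the file headers. A further 8 per-sample columns stayed unused.

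Groups followed the titles. Members and lists were chosen with earlier results of these data known. Counts were scaled by TMM. The additive model used edgeR 4.0.16 with filterByExpr, a Benjamini-Hochberg adjusted p under 0.05 and 1 residual degree of freedom, and DESeq2 1.42.0 as an alternative; both were run in R 4.3.3. Pairs of libraries used log2 CPM with a prior count of 2. The 9 members were always named, with up to 4 genes per list of largest effect in that model and the 2 nearest patterns per member. A gene with 0 counts can have up to 3 counts, between 0.108 and 0.184 CPM. Nothing says that libraries came from separate animals or cultures, so p-values measure only the spread between these libraries. Sequences are RefSeq's (GRCm38.p6), found for 7 of the 9 members. Python 3.11.15, NumPy 2.4.6, SciPy 1.17.1, pandas 2.3.3 and matplotlib 3.10.9 were used. A result on 1 listed gene is not reported here.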

Additional observations from a re-analysis of the deposited data

Results flagged for a closer look

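The LPS response pointed in opposite directions in the 2 titles for Bst2, Ifitm1, Ifitm2, Ifitm3 and Ifitm6. The single library pair of the WT title was higher after LPS and that of the KO title lower, each beyond counting error with TMM scaling. Such opposite directions follow from the library order these genes share, which 12.0% of all genes had. With DESeq2 size factors the KO-title log2 ratio came to −0.01 for Ifitm3 and −0.03 for Ifitm2. With library totals the WT-title log2 ratio fell from 0.68 to 0.08 for Ifitm1, from 0.68 to 0.07 for Ifitm6 and from 0.88 to 0.27 for Ifitm2. The response of KO titles minus that of WT titles was −2.02 for Bst2, −2.34 for Ifitm1, −1.01 for Ifitm2, −1.74 for Ifitm3 and −1.11 for Ifitm6 on the log2 scale. With 1 library per group this difference was not tested, and the direction rests on the titles, which the genotype tags contradict. Lyz1, not an interferon effector, had a difference of −7.09 in the same direction, and Lyz2 had 1.69 in the opposite direction.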

How the results depend on the processing

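The number of members that rose (4) and fell (0) in the additive model was the same in all 9 other fits and at an adjusted p under 0.01. The adjusted p of Rsad2, Cmpk2, Mx1 and Mx2 was at most 0.0121 in any fit, and that of the other 5 genes at least 0.0670. The number of members whose response differed between titles fell from 5 to 4 with DESeq2 size factors, where Ifitm2 came to −0.95, and to 3 with library totals. Library totals shifted every LPS ratio by −0.61 (log2) in WT titles and −0.47 in KO titles, and the untreated ratio of titles by −0.11. Counts over all genes moved more. In the additive model, 1308 rose and 719 fell: 374 and 79 at an adjusted p under 0.01, 1999 and 1798 without the filter on low counts, 2339 and 2146 with treatment alone, and 916 and 3143 with library totals, where 22.6% of calls were higher against 64.5%. The share was 52.6% without the filter and 52.2% with treatment alone. Leaving out each library in turn from the treatment-only model gave 1531 to 1766 rising and 1042 to 1263 falling genes. Where this left 1 library in an arm, it was assumed to vary like the others. For LPS in WT titles, 1172 were higher and 4116 lower with library totals (22.2% higher, against 50.7%), and 761 lower in FPKM with a pseudocount of 1. In KO titles, 1146 were higher and 3934 lower with totals (22.6% against 45.0%), and 818 lower in FPKM. Between titles, untreated, 646 higher and 511 lower were called without a minimum CPM, and 159 and 70 in FPKM. With totals, 48.4% of these calls were higher against 60.9%. After LPS, FPKM gave 149 higher and 221 lower. The order shared by Bst2 and the Ifitm genes held for the same 5 under each of the 3 scalings, a check added after seeing the data. The additive model takes the title as a term, so it sets LPS against untreated within each title, and the treatment-only model leaves the title out. No paired analysis by replicate number was possible because the labels give no such numbers.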

Other observations

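On the macrophage marker list 2 of 8 genes, Fcgr1 and Cd68, had the library order of Bst2, which 12.0% of all genes had. These 2 were picked after their values were seen. Lyz2, on the same list, ran in reverse, lowest in the untreated KO-titled library (8711 CPM) and the LPS WT-titled library (9917 CPM). It reached 15253 CPM in the untreated WT-titled library and 18238 CPM in the LPS KO-titled one. Fcgr1, the high-affinity IgG receptor gene, had 227 and 564 CPM in the untreated libraries titled WT and KO and 826 and 536 CPM in the LPS libraries titled WT and KO. Cd68, a lysosomal membrane glycoprotein gene, had levels of 450 and 667 CPM without LPS and 869 and 562 CPM with it, in the same order of titles. Mrc1, the mannose receptor gene, had levels of 229.9 and 184 CPM without LPS and 463 and 476 CPM with it, so its LPS libraries lay together.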
